A study of Sus scrofa with 8 samples.

Results

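Astrocyte nuclei were selected on counts of unique molecular identifiers (UMIs, 1 per captured RNA molecule) in single-nucleus RNA sequencing of whole pig retina. A barcode was a member when it held at least 2000 UMIs, at least 1 of PAX2, at least 2 of GFAP (the glial intermediate filament), at most 1 of RLBP1 (a retinaldehyde-binding protein of Müller glia and pigment epithelium) and at most 2 in total of TRPM1, GRM6, GAD1, GAD2 and PTPRC, which mark bipolar, amacrine and immune cells. The rule selected 1261 of 238517 barcodes with at least 2000 UMIs, from 388491 barcodes in all. The measured values of these 8 genes chose the members, so their levels are given as a description. Of the members, 218 had exactly 2 GFAP UMIs, and 254 barcodes that met every other condition had 1. PAX2 was at 1 UMI in 133 members and at 0 in 1264 barcodes that met the rest of the rule. RLBP1 was at 1 UMI in 416 members, and 220 barcodes outside had 2. No barcode sequence was found among the members of more than 1 lane.

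Astrocytes are the glial cells of the innermost mammalian retina, where they lie among the ganglion cell axons and cover the superficial blood vessels. They reach the retina along the optic nerve and carry the developmental transcription factor PAX2, which separates them from the Müller glia that span the whole retinal depth. They take up potassium and glutamate, exchange bicarbonate and lactate, and help to keep the inner blood-retinal barrier. When cells sense viral nucleic acid they secrete type I interferon. Its receptor signals to the nucleus and switches on antiviral effector genes such as the MX and OAS families. An intravitreal vector meets the inner retina first, so the comparison of vector with vehicle in astrocytes asks how this glial layer responded.

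The animals were female Yucatan minipigs and all had received intravitreal hyaluronidase (Vitrase) before dosing and repeated intramuscular methylprednisolone, vehicle animals included. AAV2.7m8/CAG-GFP, a capsid variant of AAV2 that carries green fluorescent protein under a ubiquitous promoter, was injected into the vitreous of both eyes at 5e11 vector genomes per eye, or vehicle buffer was injected. The 8 retinas came from 6 animals, with 4 lanes each. The week 2 groups were both eyes of 1 AAV animal and both eyes of 1 vehicle animal, and the week 4 groups were the left eyes of 2 AAV animals and of 2 vehicle animals. The labels give every group its own batch, so batch and group cannot be told apart, and p-values measure only the spread between these samples. The study's methods give more than 1 sacrifice day for the week 4 animals, the labels give only the week, and any difference in day between the retinas cannot be told apart from the rest. The week 2 comparison has 1 animal per group and was not tested. At week 4 the UMIs of all members were summed per retina and tested with edgeR's quasi-likelihood test, with p-values adjusted by the Benjamini-Hochberg method over all genes tested.

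The AAV week 4 astrocyte nuclei were far deeper than the others. Their median depth was 10066 UMIs in AAV replicate 1 and 10721 in AAV replicate 2, against 4649 and 4571 in the 2 vehicle retinas and 5078.5 to 5754 in the 4 week 2 retinas. Over all barcodes with at least 2000 UMIs the medians at week 4 lay between 3084 and 3419, and rod nuclei of the same AAV retinas had medians of 2813 and 3023. Müller nuclei moved with the astrocytes, with medians of 6075.5 and 6207 against 3131 and 3244. They were chosen by at least 3 RLBP1 UMIs, and 638 and 265 nuclei passed with AAV against 1749 and 1474 with vehicle. The part of that threshold in their depth was not tested. Once every member was thinned to 2000 UMIs, the median number of genes per nucleus was 1210 to 1248.5 in all 8 retinas. Levels below are in CPM, the UMIs of a gene scaled to a total of 1000000 UMIs over the members of a retina. They are given with the AAV or vehicle retinas in replicate order, or left eye before right at week 2. In these retinas 3 UMIs corresponded to between 1.28 and 8.842 CPM. CPM is relative to total UMIs, so a gene lower in CPM in the deeper AAV week 4 nuclei need not have fewer UMIs per nucleus.

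Both markers of the cell type that the rule did not use were present in every retina. VIM, the intermediate filament vimentin, was at 379 and 380 CPM in the AAV week 4 retinas and at 229.5 and 339.7 CPM in the vehicle retinas, against 133 and 109.9 CPM with AAV and 127 and 97.3 CPM with vehicle in Müller nuclei. CAV1, the caveolar coat protein, was at 173 and 243 CPM with AAV and 212 and 236 CPM with vehicle, and in Müller nuclei at 136 and 148 CPM and 183 and 155 CPM. Neither passed the test between AAV and vehicle (VIM log2 fold change 0.48 ± 0.21, adjusted p = 0.188; CAV1 -0.04 ± 0.21, adjusted p = 0.938), although VIM did without Vehicle replicate 2 (0.82, adjusted p = 0.0417). PAX2 was at 789 and 834 CPM with AAV and 1298 and 903 CPM with vehicle, and GFAP at 851 and 924 CPM with AAV and 1568 and 1580 CPM with vehicle. The water channel AQP4 was sparse, at 4.88 to 17.5 CPM over the 8 retinas, below the 34.2 to 47.3 CPM of Müller nuclei at week 4. Markers of myeloid cells summed to 37.1 and 19.8 CPM with AAV and to 24.9 and 7.83 CPM with vehicle, and those of oligodendrocytes to at most 4.88 CPM in any retina. Photoreceptor RNA was present and differed, since 9 rod markers summed to 940.7 and 409.3 CPM in the AAV week 4 astrocytes and to 1618 and 1648 CPM in the vehicle ones. The 7 markers of Müller glia summed to 493 and 515.6 CPM against 1595 and 1168 CPM. In the other nuclei of the vehicle week 4 retinas they summed to only 512.2 and 513 CPM. Müller nuclei themselves had 1563 and 1656 CPM with AAV and 3173 and 3178 CPM with vehicle. RLBP1, one of the Müller markers, was capped per nucleus by the rule. The part that unequal content of RNA from other cells plays in genes lower with AAV was not tested. The level in other nuclei is given beside several such genes.

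Astrocytes made up 0.709% and 0.329% of the barcodes with at least 2000 UMIs in the AAV week 4 retinas and 0.448% and 0.886% in the vehicle retinas. The groups overlapped, with means of 0.519% ± 0.269 and 0.667% ± 0.310 (SD, n = 2), and the exact permutation test gave p = 0.667, two-sided, where 2 against 2 animals cannot go below 0.333. This count moved with depth. When every barcode was thinned to 2000 UMIs before the rule was applied, the shares were 0.277% and 0.133% with AAV and 0.444% and 0.648% with vehicle, a difference of -0.341 percentage points at p = 0.333 in the exact test, the smallest it can give. The 2 groups did not overlap after thinning, whereas they did for the barcodes as sequenced. The rule asks for PAX2 and GFAP again after thinning, so this share also follows the levels of the rule's own genes. Of the members as sequenced, 73.3% and 74.8% with AAV and 92.0% and 92.7% with vehicle kept at least 1 GFAP UMI after thinning. The part of this in the share was not tested. At week 2 the AAV eyes had 0.480% and 0.182% and the vehicle eyes 0.677% and 0.589% as sequenced. The right eye of the AAV animal was low, with 57 astrocyte nuclei against 130 in its left eye.

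**Figure D1:**
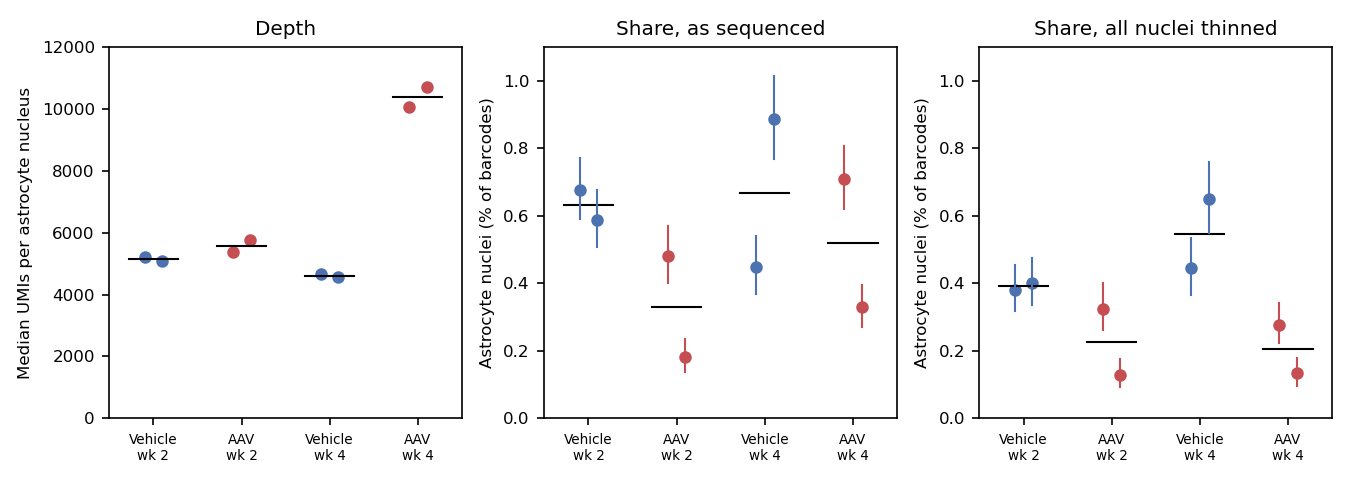
Depth of astrocyte nuclei and their share of nuclei in each of the 8 retinas, with the median UMIs per nucleus, the share in percent as sequenced and the share after all nuclei were thinned to 2000 UMIs. Bars on the shares are exact 95% binomial intervals that cover counting error only. The AAV week 4 retinas stand highest in depth, at 10066 and 10721 UMIs, and their shares fall below both vehicle week 4 retinas only after thinning.

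At week 4, 1142 of 10512 genes tested (10.9%) differed between AAV and vehicle astrocytes at an adjusted p under 0.05, 617 of them higher with AAV (5.87%) and 525 lower (4.99%). The median log2 fold change over all genes was 0.01. Without Vehicle replicate 1 the count was 758, and with nuclei thinned to 2000 UMIs it was 637, of which 573 were among the 1142. With all 6 animals in 1 fit and week as a term it was 215, of which 205 were among the 1142, and genes described below lost their calls there, among them KCNJ10 (-1.48, adjusted p = 0.257), SLC4A4 (0.327), ALDOC (0.151), ASTN2 (0.128), CP (0.216), SEMA3D (0.297), ANGPT1 (0.223) and VEGFA (0.614). Genes for antiviral effectors, antigen presentation and complement lay among the higher genes, and some channel and transporter genes among the lower ones, as the bar chart of gene lists shows.

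**Figure D2:**
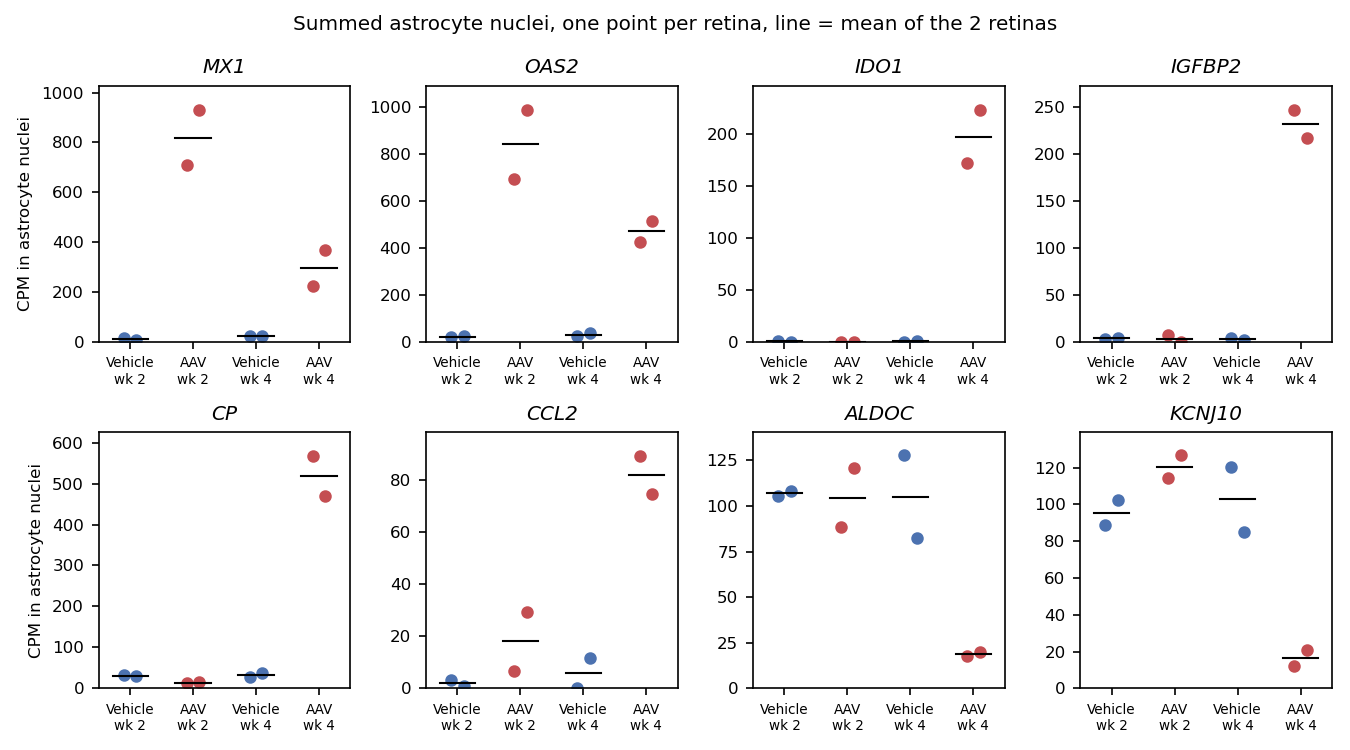
Levels of 8 genes in astrocyte nuclei, in CPM on a linear axis that starts at 0, with 1 point per retina and a line at the mean of the 2 retinas of a group. MX1 and OAS2 are high in AAV retinas of both weeks. IDO1, IGFBP2, CP and CCL2 reach their high levels at week 4, and ALDOC and KCNJ10 are low only in the AAV week 4 retinas.

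Interferon effector genes rose almost as a whole. Of 32 tested members of a list of 38, 31 were higher with AAV at week 4 and none was lower, with a median log2 fold change of 3.99. MX1, a GTPase that traps incoming viral ribonucleoproteins, was at 226 and 369.7 CPM with AAV and 24.9 and 23.5 CPM with vehicle. Its log2 fold change was 3.70 ± 0.32 (adjusted p = 0.000623), and the groups were far apart. Its relative MX2 was close to absent from vehicle astrocytes. It stood at 261 and 529.9 CPM with AAV and 0 and 2.94 CPM with vehicle, or 1280 against 3 UMIs, a ratio of 183-fold, counting interval 62.4 to 888 at the 95% level (edgeR adjusted p = 0.000513). At least 1 MX2 UMI was found in 58.7% and 78.4% of AAV astrocyte nuclei and in 29.8% and 45.0% of them after thinning. Rod nuclei of the same retinas, with a median of 2813 and 3023 UMIs, had 1 in 7.84% and 7.73%. The 2-5A synthetase OAS2 rose from 22.9 and 39.2 to 425 and 515 CPM (3.92 ± 0.26, adjusted p = 0.000268), and IFI44L from 47.8 and 35.2 to 487 and 692 CPM (3.94 ± 0.27, adjusted p = 0.000268). RSAD2, the radical enzyme viperin, had no UMI in either vehicle retina and 41.4 and 253 CPM in the AAV retinas. Against a floor of 3 UMIs over the vehicle group it was at least 59.4-fold higher, and the 2 AAV retinas differed widely from each other. BST2, the tetherin that holds budding virions at the membrane, was at least 23.0-fold higher by the same floor. GBP1, a guanylate-binding protein and classical interferon gamma target, rose from 9.56 and 5.87 to 273 and 304 CPM (5.38 ± 0.28, adjusted p = 0.000173). USP18, the protease that removes ISG15 and dampens the receptor, was the one tested effector that did not pass (25.2 and 29.4 against 11.5 and 20.6 CPM, 0.74 ± 0.36, adjusted p = 0.236).

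The interferon-stimulated response element is the short promoter motif read by the transcription factors of the interferon response, and its core holds a pair of GAAA blocks. In RefSeq annotation of Sscrofa11.1, the motif GAAANNGAAA on either strand lay within 250 bases upstream of the start in 14 of 36 interferon effector genes (38.9%), in 4 of 24 antigen presentation genes (16.7%), in none of 17 interferon signalling genes and in 587 of 19534 protein-coding genes (3.01%). A match is a description of letters, not a site shown to be used. The windows below are shown for 3 genes with a match that were at or near 0 in vehicle astrocytes (RSAD2, BST2, IDO1) and for the abundant OAS2. The search itself fixed the spacing of the blocks. They are written 5′ to 3′ on the strand of the gene, and capitals mark the match nearest the gene start.
RSAD2 (chr3:128897900-128897969, minus strand, match starting 130 bases upstream): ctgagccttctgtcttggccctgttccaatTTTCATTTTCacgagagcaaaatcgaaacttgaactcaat
BST2 (chr2:60305088-60305157, plus strand, 188 bases upstream, 2 matches): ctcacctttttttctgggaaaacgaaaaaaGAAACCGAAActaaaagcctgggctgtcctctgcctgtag
IDO1 (chr17:9245105-9245174, plus strand, 148 bases upstream, 2 matches): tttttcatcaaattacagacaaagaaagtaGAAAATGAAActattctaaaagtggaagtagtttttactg
OAS2 (chr14:38847698-38847745, minus strand, 18 bases upstream): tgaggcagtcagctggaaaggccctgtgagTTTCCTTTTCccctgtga

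These letters were not found in the 250 bases before MX1, MX2 or GBP1, nor before CCL2, CP, IGFBP2 or KCNJ10. They were also not found before DDX60, NLRC5, TAP1 or ERAP2, which were low or absent in vehicle astrocytes too. Their absence says nothing of longer or more distant elements.

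Nucleic acid sensors rose with the effectors in 5 of 8 tested genes, at a list median of 3.02. RIGI, which binds short double-stranded RNA, went from 3.82 and 7.83 CPM to 139 and 245 CPM (4.95 ± 0.45, adjusted p = 0.000826), and IFIH1, its partner for long duplexes, from 28.7 and 11.8 to 92.2 and 166 CPM (2.88 ± 0.44, adjusted p = 0.00635). The helicase DDX60 had 3 UMIs in the vehicle astrocytes and 723 in the AAV ones, a ratio of 103-fold, counting interval 35.2 to 502. CGAS, the sensor of cytosolic DNA, was low but higher in both AAV retinas (19.6 and 26.2 against 1.91 and 2.94 CPM, 3.15 ± 0.53, adjusted p = 0.00911). TLR3, the endosomal sensor of double-stranded RNA, was at 10.2 and 21.4 against 1.91 and 3.92 CPM and did not pass (2.27 ± 0.67, adjusted p = 0.0683), but was called higher with the rule without GFAP (2.64 ± 0.68, adjusted p = 0.0316) and without AAV replicate 1 (2.80, adjusted p = 0.00569). STING1, the adaptor of CGAS, did not pass either (11.9 and 17.4 against 1.91 and 6.85 CPM, 1.55 ± 0.57, adjusted p = 0.124) and was called higher with the rule without GFAP (2.01 ± 0.57, adjusted p = 0.0439). MAVS, the adaptor of the RNA helicases, was at 21.3 and 20.6 against 7.65 and 17.6 CPM (0.68 ± 0.41, adjusted p = 0.338). DHX58, a further RNA helicase, had 67 UMIs against 3, and its call was lost without Vehicle replicate 2 (adjusted p = 0.0579).

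Among 14 tested genes of interferon signalling, 6 rose. STAT2, a factor downstream of the receptor, was at 126 and 133 CPM with AAV and 36.3 and 35.2 CPM with vehicle (1.93 ± 0.21, adjusted p = 0.00184). IRF1 (3.25 ± 0.41, adjusted p = 0.00283) and the kinase JAK2 (0.97 ± 0.17, adjusted p = 0.0112) also rose. IRF7, the amplifier of type I interferon, rose from 7.65 and 3.92 to 27.7 and 35.7 CPM (2.63 ± 0.45, adjusted p = 0.00932), a call lost without Vehicle replicate 2 (adjusted p = 0.0539). Neither type I receptor chain passed, with IFNAR1 at 43.1 and 31.7 against 11.5 and 25.4 CPM (1.00 ± 0.38, adjusted p = 0.134) and IFNAR2 at 167 and 144 against 80.3 and 116 CPM (0.72 ± 0.22, adjusted p = 0.0731). With the rule without GFAP IFNAR2 was called higher (0.78 ± 0.21, adjusted p = 0.0392), as it was without Vehicle replicate 2 (adjusted p = 0.0438), and IFNAR1 was called higher without AAV replicate 2 (1.17, adjusted p = 0.0473). Of the interferons themselves, IFNB1 had 0 UMIs in the astrocytes of every retina, where 3 UMIs were the limit that such a count allows.

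Antigen presentation rose in 8 of 10 tested genes, at a median of 3.32, or 3.28 with ERAP2 at its bound. NLRC5, the transactivator of MHC class I genes, went from 1.91 and 4.89 to 154 and 220.5 CPM (5.64 ± 0.41, adjusted p = 0.000302). TAP1, a subunit of the peptide transporter, had 248 UMIs against 3 (35.4-fold, counting interval 11.98 to 173), and B2M, the light chain of class I molecules, rose from 7.65 and 3.92 to 75.1 and 79.3 CPM (3.93 ± 0.36, adjusted p = 0.000883). ERAP2, which trims peptides for class I, had no vehicle UMI and was at least 14.4-fold higher. The immune checkpoint ligand CD274 (PD-L1) rose from 5.74 and 6.85 to 32.0 and 31.7 CPM (2.36 ± 0.38, adjusted p = 0.00694). In every one of these genes both AAV retinas lay above both vehicle retinas.

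IDO1, the enzyme that degrades tryptophan and restrains T cells, was concentrated in these cells. It was at 172 and 224 CPM in AAV week 4 astrocytes and 0 and 0.979 CPM in vehicle ones, 685 UMIs against 1, a ratio of 294-fold, counting interval 52.5 to 11610 (edgeR adjusted p = 0.00022). Among barcodes with at least 2000 UMIs of the 2 AAV retinas, the astrocyte nuclei held 41.1% and 40.8% of the IDO1 UMIs. They held 1.79% and 0.909% of all UMIs in those barcodes. Müller nuclei of those retinas were at 4.85 and 3.04 CPM and all other nuclei of at least 2000 UMIs at 4.49 and 2.98 CPM. IDO1 was unevenly spread, with at least 1 UMI in 45 of 225 nuclei (20.0%) and 24 of 111 (21.6%), or 11.6% and 13.5% after thinning, against 0.269% and 0.115% of rod nuclei at their lower depth. The positive nuclei averaged 8.96 and 11.8 UMIs each, with a maximum of 70 and 37, and the 10 highest nuclei held 72.2% and 84.8% of the IDO1 UMIs.

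IGFBP2, an insulin-like growth factor binding protein, was found in a larger share of nuclei. It was at 247 and 217 CPM with AAV and 3.82 and 1.96 CPM with vehicle (6.5 ± 0.33, adjusted p = 0.000173), and 69.3% and 64.0% of AAV astrocyte nuclei had at least 1 UMI against 1.79% and 0.976% with vehicle. After thinning to 2000 UMIs these were 27.6% and 34.2% against 0% and 0.976%. Astrocytes held 73.4% and 62.6% of the IGFBP2 UMIs in barcodes with at least 2000 UMIs of the 2 AAV retinas. Rod nuclei had 1 in 0.170% and 0.252%, and the other nuclei as a whole were at 1.63 and 1.19 CPM. CP, the copper ferroxidase ceruloplasmin, rose from 28.7 and 37.2 to 567 and 469 CPM (4.01 ± 0.22, adjusted p = 0.000207) and was found in 87.6% and 83.8% of AAV nuclei against 10.7% and 14.1%, or 53.8% and 47.7% against 6.25% and 5.85% after thinning. Rod nuclei had 4.58% and 2.19% with AAV. It was not particular to astrocytes by level, since Müller nuclei had 894 and 734 CPM with AAV and 86.7 and 120.3 CPM with vehicle. AKR1C8, an aldo-keto reductase, had 433 against 2 UMIs (92.8-fold, counting interval 25.5 to 769). KIF12, a kinesin with no UMI in vehicle astrocytes of either week, was at 21.8 and 39.7 CPM, at least 14.4-fold higher, and the galanin receptor GALR1 was at 25.2 and 19.0 CPM, at least 11.9-fold higher.

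Chemokines and cytokines were mostly too sparse for the test, with 2 of 13 and 6 of 16 listed genes tested. CCL2, the monocyte chemoattractant MCP-1, was at 89.2 and 74.6 CPM with AAV and 0 and 11.8 CPM with vehicle, where the vehicle retinas differed from each other. It passed edgeR's test (3.51 ± 0.54, adjusted p = 0.00637) and not that of DESeq2 (adjusted p = 0.221). At least 1 UMI was found in 43.6% and 35.1% of AAV nuclei and in 0% and 3.90% of vehicle nuclei, or 14.2% and 10.8% of AAV nuclei after thinning, against 0.681% and 0.686% of AAV rod nuclei. Astrocytes held 23.1% and 13.2% of the CCL2 UMIs in barcodes with at least 2000 UMIs of the AAV retinas. Myeloid nuclei held 4.42% and 15.8% of them, at 18.9 and 55.6 CPM. Müller nuclei held 6.84% and 2.66% of the CCL2 UMIs, at 15.8 and 11.5 CPM with AAV and 0 and 0.189 CPM with vehicle. CCL2 thus rose in Müller nuclei too (6.93 ± 0.64, edgeR adjusted p = 8.4e-05). With the rule without GFAP, the difference of the AAV effect from Müller nuclei did not pass (-2.65 ± 0.92, edgeR adjusted p = 0.176). At week 2 CCL2 was at 6.80 and 29.5 CPM in AAV astrocytes and at 86.4 and 83.3 CPM in myeloid nuclei. CXCL10 (IP-10) was lower in astrocytes than in myeloid nuclei at week 4, with 6.40 and 25.4 CPM in AAV astrocytes, none in vehicle astrocytes, and 237 and 219 CPM in myeloid nuclei. CSF1, the growth factor of macrophages, rose from 9.56 and 8.81 to 24.3 and 52.4 CPM (2.09 ± 0.52, adjusted p = 0.0379), a weak call lost without AAV replicate 2 (adjusted p = 0.0574), Vehicle replicate 1 (0.0779) or Vehicle replicate 2 (0.131). IL6 had 9 UMIs with AAV and 0 with vehicle and was not tested.

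Targets of NF-kB rose in 6 of 14 tested genes (median 1.1). ICAM1, the leukocyte adhesion molecule, was at 21.3 and 20.6 CPM against 0 and 0.979 CPM (32.6-fold, counting interval 5.67 to 1303), the feedback inhibitor TNFAIP3 at 28.6 and 15.9 against 1.91 and 1.96 CPM (12.4-fold, counting interval 4.12 to 61.4), and the apoptosis inhibitor BIRC3 at 48.2 and 68.2 against 13.4 and 15.7 CPM (2.03 ± 0.34, adjusted p = 0.00857). In the pathway of the gp130 receptor, 3 of 7 tested genes rose and 1 fell. The oncostatin M receptor OSMR rose from 42.1 and 51.9 to 223 and 119 CPM (1.93 ± 0.32, adjusted p = 0.00874), with AAV replicate 1 well above AAV replicate 2. STAT3 rose by less (0.89 ± 0.18, adjusted p = 0.0188), and its call was lost without Vehicle replicate 1 (adjusted p = 0.0636) or Vehicle replicate 2 (0.052), after thinning (0.0722), under the strict rule (0.057) and over all 6 animals (0.138). CNTFR, the receptor for ciliary neurotrophic factor, was at 4.27 and 3.97 against 15.3 and 16.6 CPM (-1.86 ± 0.44, adjusted p = 0.0336). Other vehicle nuclei had 5.62 and 6.503 CPM, and Müller nuclei 17.9 and 18.5 CPM. That call did not survive the loss of any 1 retina, with adjusted p-values of 0.13 and 0.149 without AAV replicate 1 or 2 and of 0.148 and 0.296 without Vehicle replicate 1 or 2.

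Complement genes rose in 6 of 8 tested members, at a median of 2.88, or 2.72 with C1R at its bound. C1S, a protease of the classical pathway, was at 44.0 and 47.6 CPM with AAV and 0 and 4.89 CPM with vehicle (3.88 ± 0.55, adjusted p = 0.0048). Its partner C1R was at 13.7 and 19.0 CPM with AAV and had no vehicle UMI, at least 8.0-fold higher. C4A, their substrate, rose from 3.82 and 5.87 to 55.1 and 67.4 CPM (3.62 ± 0.38, adjusted p = 0.00154), and SERPING1, the inhibitor of both proteases, from 19.1 and 19.6 to 89.6 and 111 CPM (2.44 ± 0.27, adjusted p = 0.00182). C3, the central component, was at 22.2 and 30.9 against 5.74 and 0.979 CPM (3.33 ± 0.63, adjusted p = 0.0138), and its call was lost without Vehicle replicate 2 (adjusted p = 0.0689), under the strict rule (0.111) and over all 6 animals (0.328). Both AAV retinas lay above both vehicle retinas for each of these genes. Among barcodes with at least 2000 UMIs of the AAV retinas, astrocytes held 1.90% and 4.16% of the C3 UMIs and 1.79% and 0.909% of all UMIs. Myeloid nuclei of those retinas had C3 at 410 and 181 CPM.

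Targets of p53 were higher in 5 of 14 tested genes (median 0.53). MDM2, the ligase that degrades p53, rose from 34.4 and 24.5 to 112 and 160.2 CPM (2.33 ± 0.29, adjusted p = 0.00273). CDKN1A, the cell cycle inhibitor p21, had no UMI in the vehicle week 4 astrocytes and 19.2 and 28.6 CPM with AAV, at least 11.6-fold higher. In Müller nuclei 12 of 17 genes of the same list rose, at a median of 1.75, where 9.05% of all genes tested were called higher. Matrix and vessel genes rose in 7 of 19 tested members and fell in 1. FN1, fibronectin, rose from 103 and 165 to 495 and 405 CPM (1.79 ± 0.24, adjusted p = 0.0036), ANGPT1, the ligand that steadies endothelium, from 388 and 612 to 1179 and 1232 CPM (1.34 ± 0.22, adjusted p = 0.00849), and THBS1, the antiangiogenic thrombospondin, from 1.91 and 2.94 to 32.9 and 25.4 CPM (3.54 ± 0.49, adjusted p = 0.00437). VEGFA was the member that was lower, at 9.82 and 4.76 against 44.0 and 23.5 CPM (-1.94 ± 0.47, adjusted p = 0.0339), and this call was lost without Vehicle replicate 1 (adjusted p = 0.139). Müller nuclei of the vehicle retinas were at 57.1 and 42.7 CPM, and the part of their RNA in this difference was not tested. The endothelin receptor EDNRB, induced in injured astrocytes, rose from 24.9 and 22.5 to 118 and 113.4 CPM (2.38 ± 0.23, adjusted p = 0.00114).

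Of 13 tested genes for channels and transporters, 3 fell and 1 rose, at a median log2 fold change of -0.26. KCNJ10, the inward rectifier Kir4.1 that takes up potassium, went from 120.5 and 85.2 to 11.9 and 20.6 CPM (-2.61 ± 0.33, adjusted p = 0.00283). In the other nuclei of the vehicle retinas KCNJ10 was at 7.54 and 8.17 CPM, far below its astrocyte level. Relative to total UMIs, the bicarbonate transporter SLC4A4 fell by a smaller factor, from 2574 and 1931 to 1093 and 1083 CPM (-0.97 ± 0.17, adjusted p = 0.0108). The other vehicle nuclei had 116 and 113.1 CPM. The AAV nuclei were deeper, at medians of 10066 and 10721 UMIs against 4649 and 4571, and a fall of SLC4A4 in UMIs per nucleus was not tested. The glutamate transporter SLC1A2 was at 169 and 106 against 239 and 259 CPM and did not pass (-0.77 ± 0.23, adjusted p = 0.0694), but was called lower with the rule without GFAP (-0.90 ± 0.21, adjusted p = 0.0204) and without AAV replicate 1 (-1.13, adjusted p = 0.000886). Its relative SLC1A3 was higher at 1571 and 1291 against 792 and 1054 CPM (0.71 ± 0.19, adjusted p = 0.049), a call lost without AAV replicate 1 (adjusted p = 0.0607) or Vehicle replicate 1 (0.136), and also in DESeq2 (0.0542), with the strict rule (0.079), with a stricter limit on mitochondrial share (0.0514) or a cap on UMIs (0.0594) and over all 6 animals (0.192).

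Of 15 other genes of astrocyte identity and metabolism, 3 rose and 3 fell. ALDOC, the aldolase of astrocytes, fell from 128 and 82.2 to 17.9 and 19.8 CPM (-2.37 ± 0.29, adjusted p = 0.00264), while other nuclei had 52.0 and 48.3 CPM with vehicle. ERBB4, the neuregulin receptor, rose from 3671 and 5352 to 9076 and 8774 CPM (1.06 ± 0.19, adjusted p = 0.012). Outside the lists, ASTN2, an astrotactin known from neuron migration along glia, had one of the largest falls, from 1168 and 766 to 52.5 and 53.1 CPM (-4.11 ± 0.24, adjusted p = 0.00022), with 282 and 376 CPM in the other vehicle nuclei and 231 and 149 CPM in the other AAV nuclei. C1QTNF3, a secreted relative of adiponectin, fell from 89.9 and 65.6 to 4.70 and 2.38 CPM (-4.21 ± 0.38, adjusted p = 0.000772), and the fibrillin FBN3 from 111 and 127 to 13.2 and 11.11 CPM (-3.19 ± 0.25, adjusted p = 0.0005). Both were at or below 1.62 CPM in the other nuclei of every week 4 retina. GRIK1, a kainate receptor subunit, had the lowest log2 fold change of the genes named here, but it rested on 1 retina. It was at 8.96 and 3.97 against 15.3 and 278 CPM, with 1012 and 1091 CPM in the other vehicle nuclei, and without Vehicle replicate 2 the log2 fold change was -1.05 (adjusted p = 0.504).

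**Figure D3:**
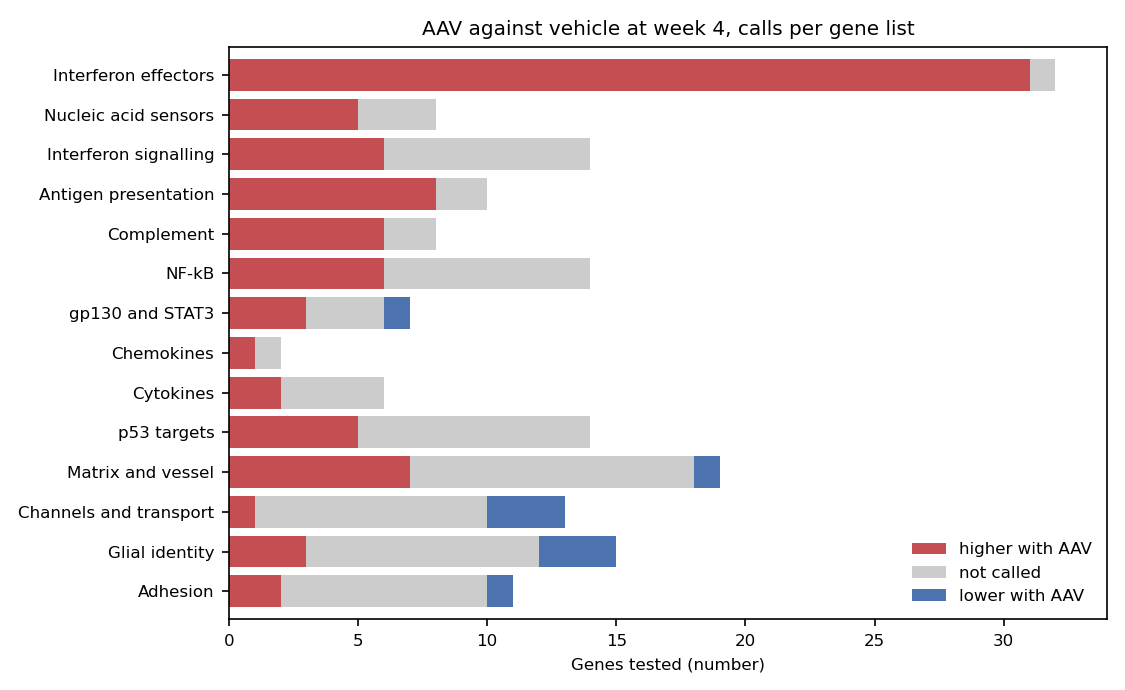
Number of genes tested at week 4 in 14 gene lists, split into genes higher with AAV, not called and lower with AAV at an adjusted p under 0.05. Interferon effectors have 31 of 32 members higher, and 3 of 13 astrocyte channel and transporter genes are lower against 1 higher.

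GFAP, the usual mark of reactive glia, needs its own set of nuclei because it was part of the rule. Nuclei chosen with at least 2 PAX2 UMIs in place of the GFAP condition had GFAP at 799.5 and 886 CPM with AAV and 1293 and 1380 CPM with vehicle at week 4. In that set 1422 of 10539 genes (13.5%) were called, 7.2% higher and 6.29% lower. Relative to total UMIs, GFAP was among the lower ones (log2 fold change -0.59 ± 0.16, adjusted p = 0.0353, and -0.67 ± 0.17 with adjusted p = 0.026 after thinning). The AAV nuclei were deeper, and GFAP UMIs per nucleus were not lower among members of the main rule, which asks for GFAP. They were 8.86 and 10.5 with AAV and 7.32 and 7.87 with vehicle. In Müller nuclei GFAP went up, at 378 and 254 CPM against 45.9 and 122 CPM (1.92 ± 0.37, adjusted p = 0.00591). The difference between these 2 changes was -2.57 ± 0.36 on the log2 scale (adjusted p = 0.00256), and -2.12 ± 0.45 (adjusted p = 0.045) with pigment epithelium left out of the Müller set. Lists of reactive astrocyte genes known from rodent brain gave 2 of 5 tested general genes, 4 of 6 genes of the inflammatory type and 1 of 5 of the ischemic type higher, and none lower. LCN2, a leading member of the general list, had 10 UMIs with AAV and 2 with vehicle and was not tested.

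At week 2 the antiviral genes were already up, in 1 animal per group and without a test. Of 9344 genes compared, 568 (6.08%) lay past 2-fold with no overlap between the eyes, 336 higher (3.6%) and 232 lower (2.48%). Interferon effectors were higher in 29 of 31 compared, at a median log2 ratio of 4.47. MX1 stood at 708 and 931 CPM in the AAV eyes and 13.8 and 9.04 CPM in the vehicle eyes, so that both AAV eyes were above the AAV week 4 retinas. All 9 compared genes of antigen presentation were higher. GBP1 was lower at this time than at week 4, with 25.9 and 112 CPM in the AAV eyes. FN1 was higher already, at 192 and 179.8 against 35.0 and 42.2 CPM.

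IDO1, IGFBP2 and CP did not show their week 4 pattern at week 2. IDO1 had 0 UMIs in both AAV eyes, while IGFBP2 was at 6.80 and 0 CPM in the AAV eyes and 3.25 and 4.02 CPM in the vehicle eyes, and CP was lower in the AAV eyes at 12.2 and 14.7 against 31.7 and 30.1 CPM. KCNJ10 was at 114 and 127 CPM in the AAV eyes and 88.6 and 102 CPM in the vehicle eyes. Of 9133 genes compared at both weeks, 121 were higher in both, which is 24.9% of the 485 higher at week 4 and 41.0% of the 295 higher at week 2. Another 20 were lower in both, 4.05% of 494 and 9.35% of 214, while 17 were higher at week 4 and lower at week 2 and 12 the reverse. The AAV animal's right eye had few nuclei, and with right eyes alone 1470 genes lay past 2-fold.

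**Figure D4:**
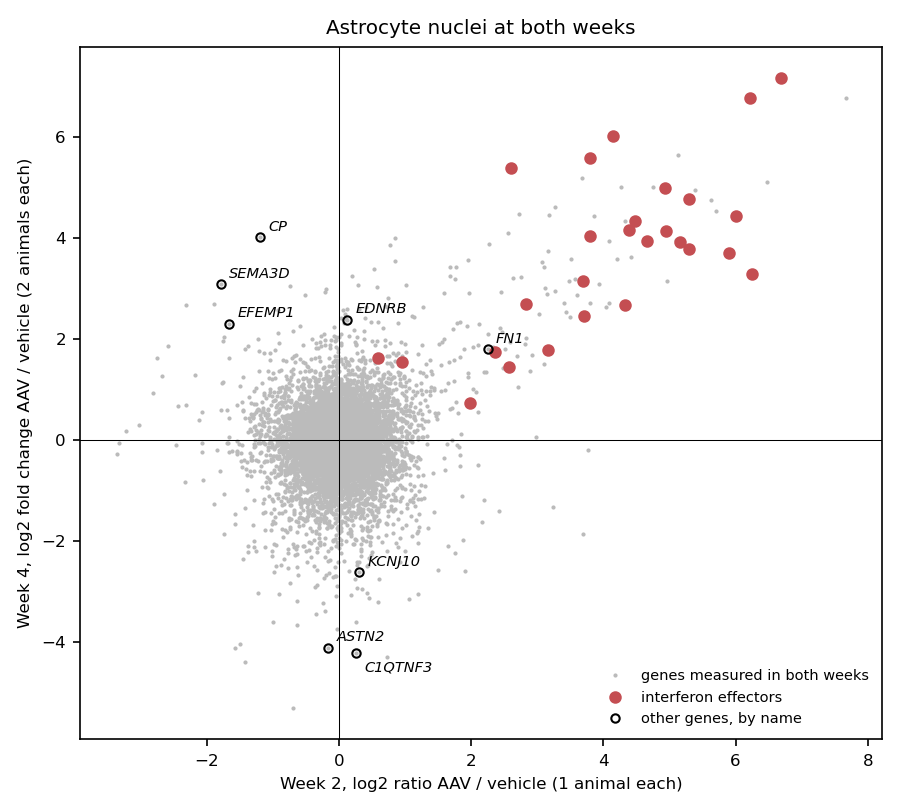
Change of each gene in AAV astrocyte nuclei at week 2 (log2 ratio, 1 animal per group) against week 4 (log2 fold change, 2 animals per group), for 9124 genes with at least 1 UMI in every group. The 27 interferon effectors drawn lie mostly high on both axes, while CP, SEMA3D and EFEMP1 lie above 0 at week 4 and below 0 at week 2, and ASTN2, KCNJ10 and C1QTNF3 lie far below 0 at week 4.

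The difference of the AAV effect between weeks was tested over the 6 animals, with the 2 eyes of a week 2 animal summed and the spread taken from the week 4 animals. Each week 2 arm is 1 animal, so a difference between those 2 animals cannot be told apart from a difference between weeks. The test passed for 27 of 12160 genes (0.222%), 10 with a more positive change at week 4 (0.0822%) and 17 with a more negative one (0.14%). None of 35 interferon effectors passed in edgeR or in DESeq2, with 10 and 7 of them at an unadjusted p under 0.05, beside 1570 and 533 of all 12160 genes. Of those 10 and 7, 2 and 1 had a more positive change at week 4 and the rest a more negative one. IGFBP2 (difference of log2 fold changes 6.15 ± 0.85, adjusted p = 0.0278) and CP (5.27 ± 0.45, adjusted p = 0.00645) passed upward. SEMA3D, a secreted guidance molecule, passed too (5.06 ± 0.49, adjusted p = 0.00739), with 6.80 and 2.95 against 23.6 and 20.1 CPM at week 2 and 227 and 212 against 26.8 and 27.4 CPM at week 4. EFEMP1, the matrix protein fibulin-3, likewise turned from 23.1 and 32.4 against 102 and 62.2 CPM at week 2 to 390.5 and 441 against 53.5 and 116 CPM at week 4 (4.00 ± 0.56, adjusted p = 0.0278). In the other direction ASTN2 passed (-3.95 ± 0.38, adjusted p = 0.00739), as did FBN3 (-2.55 ± 0.38, adjusted p = 0.0414), whose call was lost without Vehicle replicate 1 (0.0967) or Vehicle replicate 2 (0.0678) and with left eyes only (0.0631). KCNJ10 missed the threshold (-2.92 ± 0.49, adjusted p = 0.0507), but was called in DESeq2 (adjusted p = 0.0193), after thinning (0.00238), with no filter on low counts (3.33e-07), with the rule without GFAP (0.0202) and without AAV replicate 1 (0.00144) or 2 (3.96e-05). The number of calls moved with single animals, from 11 without Vehicle week 4 replicate 1 and 61 without Vehicle replicate 2 to 334 and 525 without AAV replicate 2 or 1. IGFBP2 lost its call without Vehicle replicate 1 (adjusted p = 0.0779) or Vehicle replicate 2 (0.0549) and with left eyes only at week 2 (0.0942).

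Müller glia are the cells most like astrocytes in this tissue, and the same test of AAV against vehicle in Müller nuclei called 2962 of 15123 genes (19.6%) at week 4, 9.05% higher and 10.5% lower. The comparison set, chosen by at least 3 RLBP1 UMIs and no PAX2, held 11459 nuclei, and also pigment epithelium, since RPE65 stood at 694.6 to 2026 CPM in it. Without nuclei that held an RPE65 UMI, 5783 were left. At week 4 RLBP1 in the Müller set was at 732.5 and 736.6 CPM with AAV and 1335 and 1322 CPM with vehicle. The part of the RLBP1 threshold in the comparison was not tested. With retina as a block, the AAV effect differed between the 2 cell types in 373 of 13697 genes (2.72%), 249 more positive in astrocytes (1.82%) and 124 more negative (0.905%), and in 153 genes without the RPE65 nuclei. The count was 76 without Vehicle replicate 1 and 132 without Vehicle replicate 2.

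LRRTM4, a synaptic adhesion protein with leucine-rich repeats, moved in opposite directions. It was at 383 and 549.7 CPM in AAV astrocytes and 30.6 and 66.6 CPM in vehicle astrocytes, but at 14.6 and 28.5 CPM with AAV and 67.2 and 135 CPM with vehicle in the Müller nuclei (difference 5.66 ± 0.27, adjusted p = 2.78e-06). Without RPE65 nuclei and with the rule without GFAP it was 5.10 ± 0.36 (adjusted p = 0.000241). Other nuclei of the vehicle retinas had 1957 and 2116 CPM. COL12A1, a fibril-associated collagen, was at 48.2 and 40.5 against 0 and 3.92 CPM in astrocytes and at 1.02 and 1.82 against 3.00 and 4.16 CPM in Müller nuclei (5.79 ± 0.82, adjusted p = 0.00523), a call lost after thinning (adjusted p = 0.0695) and with Müller nuclei of at least 6 RLBP1 UMIs (0.0806). IDO1 differed by 6.97 ± 0.87 (adjusted p = 0.00406), a call lost after thinning (adjusted p = 0.169) and without RPE65 nuclei (0.423). ANGPT1 rose in astrocytes and was at 2.81 and 1.82 against 3.00 and 4.53 CPM in Müller nuclei (1.96 ± 0.37, adjusted p = 0.0195), a call lost without Vehicle replicate 1 (0.102) or 2 (0.0797), after thinning (0.0883) and with at least 6 RLBP1 UMIs (0.774). For CP the difference was 1.1 ± 0.24 (adjusted p = 0.035), and it did not hold without AAV replicate 1 (0.0522), Vehicle replicate 1 (0.129) or Vehicle replicate 2 (0.19), after thinning (0.201), under the strict rule (0.132), with at least 6 RLBP1 UMIs (0.12) or without RPE65 nuclei (0.08).

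**Figure D5:**
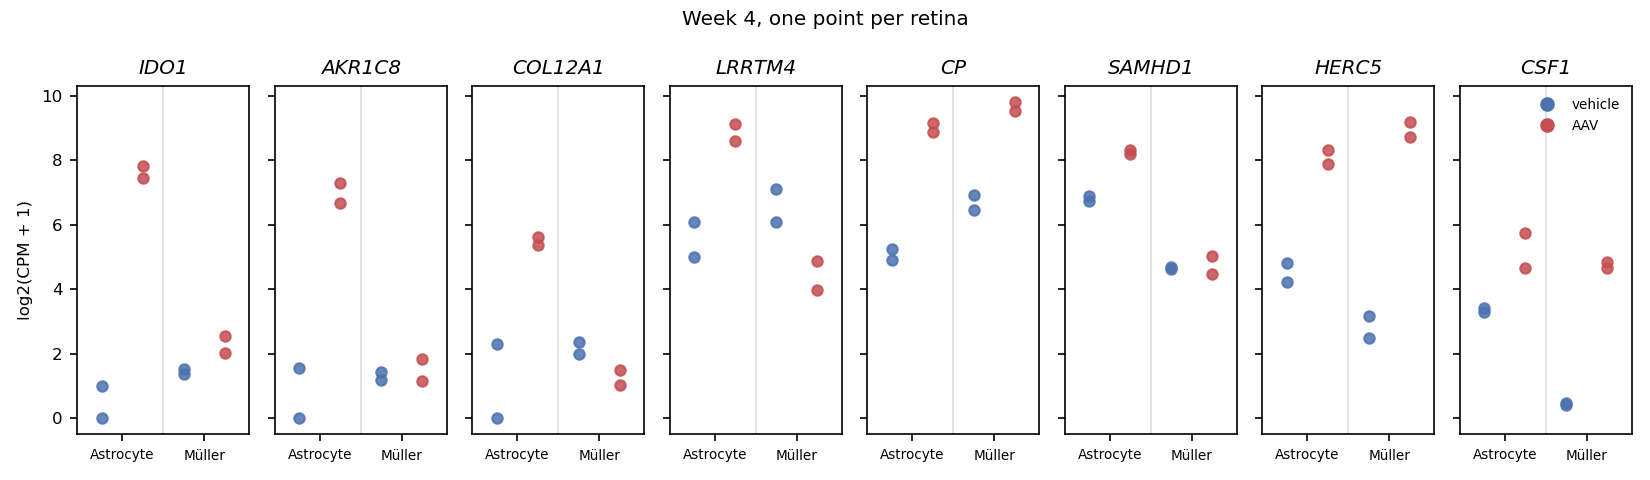
Levels of 8 genes in astrocyte and Müller nuclei of the 4 week 4 retinas, as log2 of CPM plus 1, with 1 point per retina. LRRTM4 is higher with AAV in astrocytes and lower in Müller nuclei, HERC5 is higher with AAV in both, and SAMHD1 separates the groups in astrocytes only.

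Interferon effectors rose in both cell types. In Müller nuclei 35 of 36 interferon effectors rose, at a median of 4.76, and 5 of 35 differed between the cell types. SAMHD1, the dNTP hydrolase, was the 1 with a larger rise in astrocytes, from 117 and 106 to 292 and 317 CPM against 24.8 and 23.6 to 31.4 and 21.2 CPM in Müller nuclei (1.40 ± 0.27, adjusted p = 0.0237), a call lost without Vehicle replicate 1 (adjusted p = 0.142) or 2 (0.126), without RPE65 nuclei (0.143), with at least 6 RLBP1 UMIs (0.08), and with the rule without GFAP and without RPE65 nuclei (1.11, adjusted p = 0.167). HERC5, the ligase that attaches ISG15, rose by less in astrocytes, from 26.8 and 17.6 to 232 and 319.7 CPM against 7.91 and 4.53 to 417 and 579 CPM (-2.59 ± 0.32, adjusted p = 0.00375), as did HERC6, TRIM25 and IFI44. HERC5 lost its call under the strict rule (adjusted p = 0.0544), and HERC6 there (0.0643) and without Vehicle replicate 1 (0.154) or 2 (0.073). TRIM25 lost its call without AAV replicate 1 (0.0796), Vehicle replicate 1 (0.179) or Vehicle replicate 2 (0.169), without RPE65 nuclei (0.142) and with at least 6 RLBP1 UMIs (0.137). IFI44 lost its call in most alternatives, among them without AAV replicate 1 (0.0552) or Vehicle replicate 2 (0.713) and after thinning (0.631). KCNJ10 was at 21.7 and 14.6 CPM with AAV and 43.0 and 46.1 CPM with vehicle in Müller nuclei and fell there too (-1.24 ± 0.21, adjusted p = 0.00334), and the difference from astrocytes did not pass (-1.38 ± 0.41, adjusted p = 0.123), but did without AAV replicate 2 (-1.87, adjusted p = 0.00784) and with no filter on low counts (0.0239).

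EGFP RNA was found in astrocytes of AAV retinas only. At least 1 UMI was present in 25 of 130 nuclei (19.2%, exact 95% binomial interval 12.9 to 27.1) and 24 of 57 (42.1%, 29.1 to 55.9) of the left and right AAV eyes at week 2, and in 37 of 225 (16.4%, 11.9 to 21.9) and 7 of 111 (6.31%, 2.57 to 12.6) of the AAV retinas at week 4. No vehicle astrocyte had one, and at a limit of 3 counts this allows a share of nuclei with a UMI of up to 1.32% to 2.68% per retina. T cell nuclei, taken here as a background of free RNA, had EGFP in 6.72% and 8.18% at week 4, at median depths of 3174 and 3396 UMIs against 10066 and 10721 in astrocytes. The share in AAV replicate 2 was below that background, and rod nuclei had 6.22% and 5.51%. By level, EGFP was at 28.6 CPM in astrocytes and 21.2 CPM in T cell nuclei of AAV replicate 1, and at 8.73 and 28.3 CPM in those of replicate 2. With astrocytes thinned to 2000 UMIs their shares were 4.44% and 2.70%, while T cell nuclei were not thinned. At week 2 rods were at 6.30% and 9.97% and Müller nuclei at 13.4% and 17.8%, the latter at median depths of 3841 and 4219 UMIs against 5383 and 5754 in astrocytes. Thinned astrocyte shares were 9.23% and 19.3% at week 2. By level, astrocytes of the left eye were at 47.6 CPM and Müller nuclei at 50.6 CPM, and those of the right eye at 174 and 76.8 CPM.

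EGFP-positive and EGFP-negative astrocytes of the same animal were compared over 3 AAV animals. The 2 eyes of the week 2 animal were summed, with 25 of 130 nuclei positive in the left eye and 24 of 57 in the right. In that animal a difference between eyes therefore cannot be told apart from one by EGFP status. With the rule without GFAP, its NEFL level was 40.8 CPM in the left eye and 208.6 CPM in the right. The test called 11 of 8325 genes (0.132%), all higher in EGFP-positive nuclei, and only 2 after thinning. With nuclei of at least 2 EGFP UMIs against those with none it called 30, of which 9 were higher and 21 lower, and only 4 were among the 11. Without AAV week 4 replicate 1 it called 0 genes, and without the week 2 animal 2. The others with a symbol were the mitochondrial transcripts COX1 (log2 difference 1.11 ± 0.23) and ND4 (1.32 ± 0.28), the neurofilament NEFL (1.85 ± 0.36), which ganglion cells also express, the chaperone HSP90AB1 (1.73 ± 0.37) and the receptor accessory protein NETO1 (4.01 ± 0.83), and the other 5 are given by identifier only. The part of RNA quality or of neuronal RNA in these calls was not tested. HSP90AB1 and NETO1 were lower in EGFP-positive nuclei of AAV week 4 replicate 2, at 12.8 against 29.6 CPM and 0 against 2.54 CPM. In AAV week 4 replicate 1 NETO1 had 23 UMIs against 1. MDM2 was one of the 11, with 58.9 against 45.6 CPM in the week 2 animal, 257 against 83.7 CPM in AAV week 4 replicate 1 and 371 against 146 CPM in replicate 2 (log2 difference 1.23 ± 0.23, adjusted p = 0.0342). MDM2 was higher in EGFP-positive nuclei of all 3 animals, with 29 UMIs in those of replicate 2. It was the only 1 called of 12 tested p53 targets. CDKN1A was at 16.4 against 6.51 CPM, 36.4 against 15.8 CPM and 25.6 against 28.75 CPM in the 3 animals (0.90 ± 0.49, adjusted p = 0.998). Of 32 interferon effectors tested, 17 were above 0, 1 was at an unadjusted p under 0.05, as were 394 of all 8325 genes, and none was called. MX1 was at 788 against 774 CPM, 244 against 222 CPM and 295 against 375 CPM in EGFP-positive and EGFP-negative nuclei of the 3 animals (-0.03 ± 0.16, adjusted p = 0.998), a difference without a common direction.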

How the data were processed

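Single-nucleus libraries from 8 retinas were made from 4 capture lanes each and then sequenced. The authors aligned the reads with Cell Ranger 8.0.0 to the pig genome Sscrofa11.1 with an added EGFP sequence, and deposited raw UMI counts per gene and barcode, a matrix for each lane, covering 35683 genes of which 18049 carry no symbol. Barcodes of a retina's 4 lanes were pooled, members were selected by the rule given above, and their counts were summed per retina. Nuclei are not replicates, so the retina or animal was the unit of every test. No doublet caller was run, and members with a doublet's marker genes were limited only by the rule. Rod nuclei were taken with at least 10 UMIs of PDE6A, PDE6B and SAG.

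Sums were tested with edgeR 4.0.16 in R 4.3.3 (TMM factors, default filter on low counts, glmQLFit and glmQLFTest), at an adjusted p under 0.05. DESeq2 1.42.0, RLE factors, no filter, a stricter rule, a rule without GFAP, thinning to 2000 UMIs, a mitochondrial limit of 0.5%, a cap of 20000 UMIs and the loss of each animal were alternatives. The differences between weeks, between cell types and between EGFP-positive and EGFP-negative nuclei were tested as terms of such fits, the last 2 with retina or animal as a block. A gene with no vehicle UMI was compared with 3 UMIs over the vehicle group, and intervals on ratios of few UMIs cover counting error only. Only the week 4 test of AAV against vehicle was tried on simulated counts, with 200 changed genes and a dispersion set to 0.05 for every gene. In that setting it recovered 1.0% of the changed genes at 2-fold, 76.5% at 4-fold and 92.0% at 8-fold. Of the genes it called, 0.0%, 2.55% and 5.15% were false. The dispersion was not taken from the real counts, so these shares do not give the power of the test on them.

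The members and the gene lists were chosen with earlier results of these data known. Of 422 listed genes, 382 were found by symbol. Named genes were the markers of the cell type, up to 4 called genes per list with the largest change at week 4, members needed to say what a list did not do, the 10 highest and 10 lowest called genes with a mean of at least 10 CPM and no overlap, and the 5 largest differences each way between weeks and between cell types. Beyond this rule, CXCL10, IL6, LCN2 and the genes called in the EGFP comparison were named after their values were seen. Some genes that the rule names are not reported here.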

Additional observations from a re-analysis of the deposited data

Results flagged for a closer look

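The AAV effect on astrocytes differed between week 2 and week 4 in 27 genes by edgeR's test of the difference itself over 6 animals. Each week 2 arm is 1 animal, so a difference between those 2 animals cannot be told apart from a difference between weeks. The 5 largest positive differences on the log2 scale were IGFBP2 at 6.15, CP at 5.27, SEMA3D at 5.06, EFEMP1 at 4.00 and SIAH3 at 3.85. IGFBP2 lost its call without Vehicle replicate 1 (adjusted p = 0.0779) or Vehicle replicate 2 (0.0549) and with left eyes alone at week 2 (0.0942). SIAH3, a relative of ubiquitin ligases, lost its call without Vehicle replicate 1 (adjusted p = 0.132) or Vehicle replicate 2 (0.0699), after thinning (0.106), with left eyes alone at week 2 (0.0942) and in DESeq2 (0.0656). The 5 largest negative differences were SGCZ at -4.55, C1QTNF3 at -4.47, GRM5 at -4.25, ZGRF1 at -4.00 and ASTN2 at -3.95. SGCZ, a sarcoglycan, lost its call without Vehicle replicate 1 (adjusted p = 0.117) or Vehicle replicate 2 (0.056). C1QTNF3 lost it without Vehicle replicate 1 (0.0566) and with left eyes alone at week 2 (0.052), and ZGRF1 without Vehicle replicate 1 (0.0505). The glutamate receptor GRM5 turned from 156 and 79.6 against 43.9 and 72.3 CPM at week 2 to 14.9 and 11.9 against 149 and 95.9 CPM at week 4, with 712 and 514 CPM in the other vehicle nuclei, and the part of that RNA in the difference was not tested.

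Between astrocytes and Müller nuclei at week 4 the AAV effect differed in 373 genes. It was more positive in astrocytes for IDO1 (6.97), AKR1C8 (6.15), COL12A1 (5.79), LRRTM4 (5.66) and PRTG (5.65), and more negative for CSF1 (-4.02), SMKR1 (-3.42), CSMD3 (-3.30), TMPRSS7 (-3.23) and PRIMA1 (-3.10). LRRTM4 kept its call in all 12 alternatives run for it. AKR1C8 lost its call without Vehicle replicate 1 (adjusted p = 0.0644) or Vehicle replicate 2 (0.0587), and with Müller nuclei of at least 6 RLBP1 UMIs it was 2.28 (adjusted p = 0.951). With those Müller nuclei PRTG (adjusted p = 0.399), CSF1 (0.215), PRIMA1 (0.103) and COL12A1 (0.0806) lost their calls too. After thinning IDO1 (0.169), PRTG (0.146), CSF1 (0.427), TMPRSS7 (0.179) and COL12A1 (0.0695) did so. Without RPE65 nuclei IDO1 (0.423), PRTG (0.0764), CSF1 (0.124) and TMPRSS7 (0.136) were not called, and PRTG, CSF1 and PRIMA1 lost theirs without either vehicle retina. TMPRSS7 lost its call without Vehicle replicate 2 (0.129), and PRTG under the strict rule (0.0577). SMKR1 lost its call without Vehicle replicate 1 (0.0559), and CSMD3 with the rule without GFAP and without RPE65 nuclei (0.151).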

How the results depend on the processing

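The 1142 genes called at week 4 became 1978 without a filter on low counts, 695 in DESeq2 (680 shared), 637 after thinning (573 shared), 725 under the stricter rule (639 shared), 649 with the rule without GFAP after thinning, an alternative chosen after seeing the data, and 215 with all 6 animals (205 shared), and ranged from 758 to 1504 with 1 retina left out. The 31 interferon effectors called higher ranged from 26 to 33 with 1 retina left out. The 27 genes of the week difference became 567 without a filter, 162 after thinning, 102 with the rule without GFAP, 14 with left eyes only and 61 in DESeq2, and ranged from 11 to 525 with 1 animal left out. The 373 genes of the Müller difference became 800 without a filter, 115 with at least 6 RLBP1 UMIs, 209 after thinning, 153 without RPE65 nuclei and 194 with the rule without GFAP as well, and ranged from 76 to 513. The 11 genes of the EGFP comparison became 30 with at least 2 EGFP UMIs (21 of them lower), 2 after thinning and 17 without a filter, and ranged from 0 to 13, and without the animal as a block none was called. The 568 genes of week 2 became 1470 with right eyes only and 882 after thinning. The share of astrocytes at week 4 turned to a difference of 0.041 percentage points under the stricter rule. The uncalled change of CAV1 turned to 0.018 without a filter, and ranged from -0.30 to 0.22 with 1 retina left out, above 0 without AAV replicate 1 (0.22) or Vehicle replicate 2 (0.057). The uncalled change of AQP4 turned to -0.62 without AAV replicate 1 and to -0.098 without Vehicle replicate 1, in a range of -0.62 to 0.86 with 1 retina left out. Over 123 named genes and all alternatives at week 4, 1438 values kept their direction and side of the threshold, 161 lost the call, 62 of them with all 6 animals, 15 gained it and 5 changed sign. Over 18 genes of the Müller difference 149 values kept theirs, 65 lost the call and 2 gained it, and over 12 genes of the week difference 86 kept theirs, 16 lost the call and 6 gained it. The causes were not tested. AAV and vehicle animals could not be paired, because the replicate numbers of the week 4 animals only follow the order of the samples. Genes with few vehicle UMIs have only a bound or a wide interval.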

Other observations

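CCL2 was found in a larger share of IDO1-positive than of IDO1-negative astrocyte nuclei in both AAV week 4 retinas. CCL2 had at least 1 UMI in 30 of 45 IDO1-positive nuclei (66.7%) and 68 of 180 IDO1-negative nuclei (37.8%) of AAV replicate 1, and in 18 of 24 (75.0%) and 21 of 87 (24.1%) of AAV replicate 2. The antiviral MX2 was present in 82.2% and 100% of IDO1-positive and in 52.8% and 72.4% of IDO1-negative nuclei. IGFBP2 differed less, with 73.3% and 75.0% against 68.3% and 60.9%. IDO1-positive nuclei were somewhat deeper, with medians of 10881 and 11605 UMIs against 9891.5 and 10232, and with nuclei of 2 retinas no test was made.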
